A study of Mus musculus with 8 samples.

Results

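The genes described here were 2 Ras genes, *Hras* and *Nras*, and 7 genes for feedback inhibitors of the Ras-ERK pathway, *Dusp4*, *Dusp5*, *Dusp6*, *Spry2*, *Spry4*, *Spred1* and *Spred2*. They were chosen by name, as 9 of the 21938 protein-coding genes of the annotation. A locus was the annotated span of the gene with 20 kb on each side, and a peak belonged to it if the 2 shared at least 1 bp. By this rule the loci held 84 of the 129466 peaks of 8 libraries, and these fell into 20 of the 37230 regions obtained by merging the peaks of all libraries.

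The peaks came from FAIRE-seq, which recovers the DNA that is least held by crosslinked protein, so that accessible chromatin is over-represented among the sequenced fragments. EpH4 is a mouse mammary gland epithelial line and EpRas is its derivative transformed with active H-Ras, and each is represented by a single line. Both lines were either left untreated or given TGF-β3 at 1 ng/ml for 8 days, which gave 4 groups of 2 libraries. The labels give 10% serum for EpH4 and 4% for EpRas in every library, so serum and line cannot be told apart.

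Ras proteins are small GTPases that switch on the RAF, MEK and ERK kinases when bound to GTP. Active ERK in turn induces genes whose products damp the same cascade. Among these, the DUSP proteins remove phosphate from ERK and related kinases, whereas Sprouty and SPRED proteins act further upstream and limit activation of Ras or RAF. In mammary epithelium the pathway lies downstream of growth factor receptors such as the EGF and FGF receptors.

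The lists held between 10821 peaks (EpH4 with TGF-β, replicate 2) and 27337 peaks (EpRas with TGF-β, replicate 1), with no read counts, so the depth is unknown and a site without a peak is not shown to be closed. The position of a peak within its list was therefore expressed as a score percentile, the share of the peaks of that library with a score at or below its own, with 0 for a region without a peak. Of the marker genes examined, a peak near a start site was present for *Cdh1* in 4 libraries (all EpH4), *Krt8* in 5 (3 EpH4, 2 EpRas), *Cldn4* in 5 (4 EpH4, 1 EpRas) and *Krt18* in 3 (2 EpH4, 1 EpRas), and for *Epcam* in 0. Among markers of other cell types, *Col1a1* had one in 2 libraries, *Cd14* in 2 and *Vim* in 1, all of them EpRas, and the other 8 genes (*Col1a2*, *Thy1*, *Ptprc*, *Cd3e*, *Pecam1*, *Cdh5*, *Adipoq* and *Plin1*) in 0. The peaks of *Cdh1*, and largely those of *Cldn4*, thus followed the line. *Krt8* and *Krt18* had peaks in both lines, and the markers of other cell types had few peaks. The part of these markers in the line differences below was not tested.

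The accessible sites that carried the results are given first as reference sequence (GRCm38.p6, forward strand), without the bases of protein-coding exons. They are the regions at the gene starts of *Hras* and *Spred2*, where the lines differed most, the *Dusp6* and *Dusp5* promoters, and distal regions of *Dusp4*, *Dusp5* and *Spred2*. Capitals mark matches, on either strand, to the consensus letters of 4 factor families. The letters were TGASTCA (AP1 family), MCGGAAR (ETS family) and TGTGGTT (RUNX family), where S is either C or G, M is either A or C and R is either A or G, and for SRF the serum response element. A match is a string of letters and was not measured as a binding site.
Hras promoter (chr7:141194006-141194156): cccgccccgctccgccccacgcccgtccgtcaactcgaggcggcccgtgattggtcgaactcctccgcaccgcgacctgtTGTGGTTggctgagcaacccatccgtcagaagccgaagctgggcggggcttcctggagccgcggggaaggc
Spred2 promoter (chr11:19924021-19924320): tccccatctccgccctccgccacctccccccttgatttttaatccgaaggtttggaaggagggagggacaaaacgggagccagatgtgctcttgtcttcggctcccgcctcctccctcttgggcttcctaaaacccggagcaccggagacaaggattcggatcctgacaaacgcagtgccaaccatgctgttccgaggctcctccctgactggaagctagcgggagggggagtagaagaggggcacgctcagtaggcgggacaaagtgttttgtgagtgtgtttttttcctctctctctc
Dusp6 promoter (chr10:99262952-99263230): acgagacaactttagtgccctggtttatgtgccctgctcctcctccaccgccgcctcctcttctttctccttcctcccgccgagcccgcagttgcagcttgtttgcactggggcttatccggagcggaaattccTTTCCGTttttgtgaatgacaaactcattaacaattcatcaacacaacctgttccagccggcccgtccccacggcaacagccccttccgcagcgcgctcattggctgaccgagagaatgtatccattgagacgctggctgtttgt
Dusp5 promoter (chr19:53528890-53529108): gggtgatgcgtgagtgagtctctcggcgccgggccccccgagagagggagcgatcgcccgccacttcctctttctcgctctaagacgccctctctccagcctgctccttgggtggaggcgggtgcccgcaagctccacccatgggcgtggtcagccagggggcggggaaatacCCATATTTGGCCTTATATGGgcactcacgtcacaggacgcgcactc
Dusp4 intron (chr8:34815192-34815491): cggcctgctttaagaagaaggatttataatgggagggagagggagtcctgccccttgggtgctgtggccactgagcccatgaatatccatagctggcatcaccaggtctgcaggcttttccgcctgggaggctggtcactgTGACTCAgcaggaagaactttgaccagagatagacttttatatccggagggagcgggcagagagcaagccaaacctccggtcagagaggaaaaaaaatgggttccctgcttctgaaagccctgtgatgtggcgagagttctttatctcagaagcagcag
Dusp5 intron (chr19:53532094-53532393): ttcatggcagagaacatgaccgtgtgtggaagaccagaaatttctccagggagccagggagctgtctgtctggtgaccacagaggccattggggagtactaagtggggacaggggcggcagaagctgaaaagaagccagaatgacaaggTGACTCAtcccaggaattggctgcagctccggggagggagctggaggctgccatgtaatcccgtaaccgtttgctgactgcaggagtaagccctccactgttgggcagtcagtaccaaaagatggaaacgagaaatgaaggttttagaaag
Dusp5 downstream (chr19:53555232-53555531): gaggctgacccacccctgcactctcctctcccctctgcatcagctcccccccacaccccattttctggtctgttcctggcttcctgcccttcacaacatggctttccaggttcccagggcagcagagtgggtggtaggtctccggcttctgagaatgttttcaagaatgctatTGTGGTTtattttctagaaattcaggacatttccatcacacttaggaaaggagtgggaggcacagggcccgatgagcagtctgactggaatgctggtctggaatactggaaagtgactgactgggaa
Spred2 intron (chr11:19979370-19979669): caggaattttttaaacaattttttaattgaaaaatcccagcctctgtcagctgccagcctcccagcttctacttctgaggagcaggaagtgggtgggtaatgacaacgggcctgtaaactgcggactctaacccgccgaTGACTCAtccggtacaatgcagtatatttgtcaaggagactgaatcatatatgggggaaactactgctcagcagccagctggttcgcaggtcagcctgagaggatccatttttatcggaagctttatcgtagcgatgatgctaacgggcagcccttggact

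*Hras* encodes the GTPase whose active form was used to transform EpRas cells. The peak lists concern the mouse locus, and 0 of the member peaks overlapped a coding exon of a member gene. At the *Hras* gene (ENSMUSG00000025499, chr7:141189105-141194005, minus strand) a peak was called just upstream of the gene in all 4 EpRas libraries and in 1 EpH4 library. The region (chr7:141193973-141194227) is centred 95 bp from the *Hras* start and 57 bp from the start of *Lrrc56*, which is transcribed in the opposite direction, so the peak cannot be assigned to one of the 2 genes.

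Untreated EpRas cells had score percentiles of 31.2 and 62.3 at the *Hras* promoter region, and EpRas cells given TGF-β had 38.7 and 66.2. In EpH4 cells it was 26.3 in replicate 1 with TGF-β, and the other 3 libraries had no peak. Every EpRas library thus lay above every EpH4 library, by a narrow margin between the lowest EpRas and the highest EpH4 value. The mean was 49.6 ± 17.2 in EpRas and 6.57 ± 13.1 in EpH4 (SD, n = 4), a difference of 43.0 (two-sided exact permutation test with 70 assignments, p = 0.0286, the smallest that 4 against 4 libraries allow). After Benjamini-Hochberg adjustment over the 15059 regions called in at least 4 libraries, the exact permutation p was 0.186. The 4 EpRas calls of the region met this limit without the EpH4 call, so these p-values are a description only. In lists cut to the 10821 peaks with the highest scores, the region was called in 2 EpRas and 0 EpH4 libraries, and the lines then overlapped.

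On chromosome 7 as a whole the lines also differed in the same direction. Its share of all peaks was 4.28 to 4.94% in EpH4 and 5.50 to 5.93% in EpRas libraries, and 14.5% of its tested regions had higher percentiles in EpRas without overlap, against 11.7% of the tested regions of all chromosomes. Among the chromosomes of the other members, the share was also higher in EpRas without overlap on 2 (*Spred1*), 14 (*Spry2*) and 18 (*Spry4*). On chromosome 3 (*Nras*) it was lower, at 6.13 to 6.26% in EpH4 and 5.23 to 5.53% in EpRas. On the remaining member chromosomes the lines overlapped. The part of these shifts in the results for *Hras* and the other members was not tested.

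The 2 further regions in the *Hras* locus were each called in 1 EpH4 library. One lay 1006 bp upstream, inside *Lrrc56*, at a percentile of 39.4 in untreated replicate 1. The other lay 21.4 kb downstream, at the promoter of *Rnh1*, at 0.527 in replicate 1 with TGF-β, the lowest percentile of all 84 peaks. Counted over the locus, *Hras* had 1, 0, 2 and 0 peaks in EpH4 (untreated 1 and 2, then TGF-β 1 and 2) and 1 in each EpRas library. The means of 0.75 ± 0.957 and 1 ± 0 peaks per locus differed by less than the SD of the EpH4 libraries (exact permutation test, p = 1).

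*Nras* encodes a closely related GTPase. Its only region lay at the gene start (chr3:103058102-103058379, 45 bp upstream) and reached percentiles of 35.4 in untreated EpH4 replicate 1, 45.3 in EpH4 with TGF-β replicate 1 and 2.84 in EpRas with TGF-β replicate 1. The other 5 libraries had no peak, and the region missed the limit of 4 libraries for a test. The lines overlapped, and the EpRas peak came from the longest list.

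**Figure D1:**
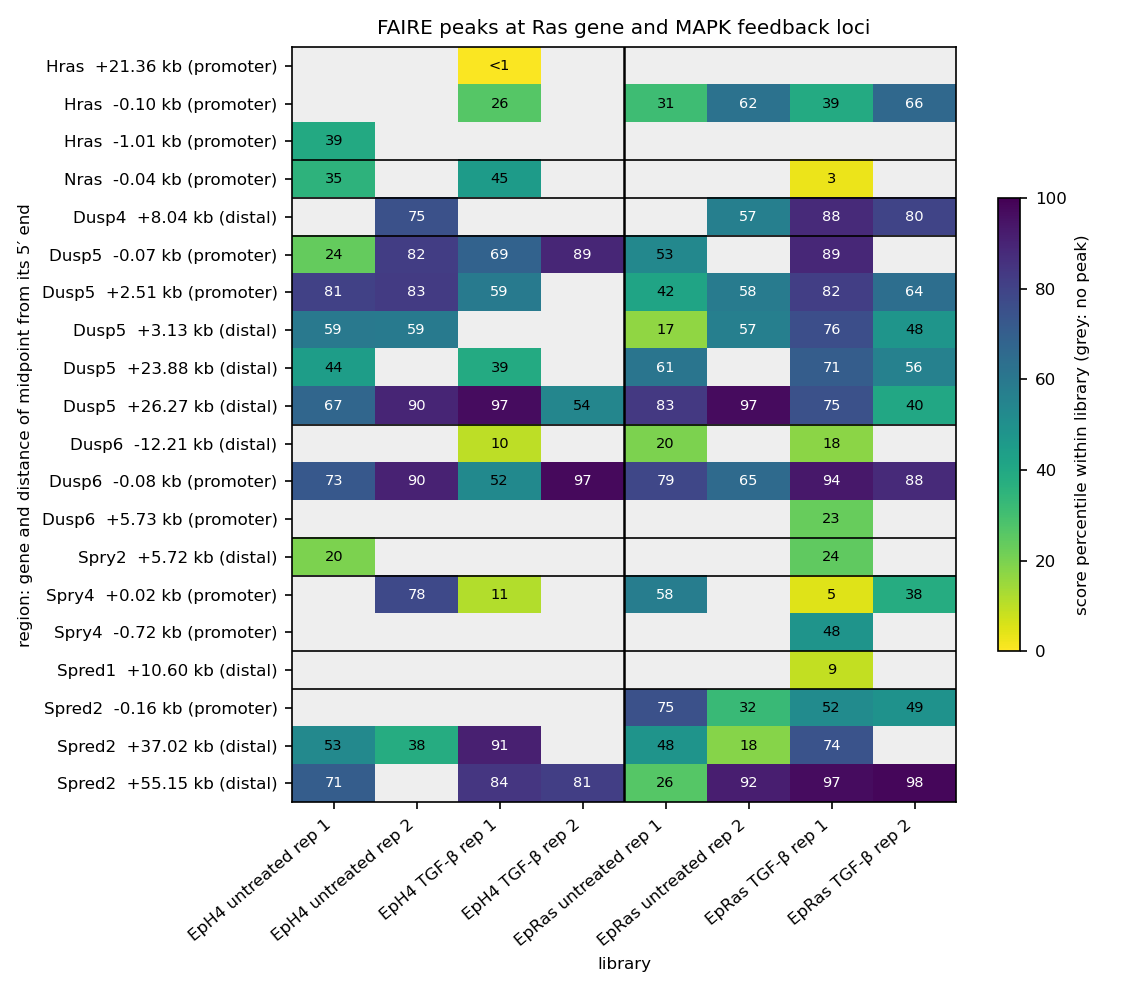
Score percentile of the 20 regions (rows, with the distance of the midpoint from the gene's 5′ end in kb) in the 8 libraries (columns). Numbers are percentiles and grey marks a library without a peak. Promoter means within 2 kb of the start of any annotated gene. The *Spred2* promoter is called only in the 4 EpRas libraries, the *Dusp6* promoter and a region 26.3 kb downstream of the *Dusp5* start in all 8.

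DUSP6 is the cytoplasmic phosphatase most specific for ERK. Its promoter region (chr10:99262952-99263342, 84 bp upstream) was called in all 8 libraries, which held for 2 of the 20 member regions (10.0%) and for 11.4% of all merged regions. The percentile was 72.6 and 90.3 in untreated EpH4, 52.4 and 97.3 in EpH4 with TGF-β, 78.7 and 65.5 in untreated EpRas and 93.7 and 88.2 in EpRas with TGF-β. All values were thus at 52.4 or above in the full lists, and the lines overlapped throughout. The means were 78.1 ± 20.1 in EpH4 and 81.5 ± 12.4 in EpRas (SD, n = 4), and the libraries of each line spread more widely than the difference of 3.40 (exact permutation test, p = 0.8). Its sign was negative without EpH4 TGF-β replicate 1 (-5.18) or EpRas TGF-β replicate 1 (-0.679).

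A second *Dusp6* region, 12.2 kb upstream and intergenic, was called at 10.1 in EpH4 with TGF-β replicate 1, 19.8 in untreated EpRas replicate 1 and 17.6 in EpRas with TGF-β replicate 1. These are the 3 libraries with the longest lists. A region 5.73 kb downstream of the start, in the noncoding gene *Gm34921*, was called only in EpRas with TGF-β replicate 1, at 23.2.

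DUSP5 is a nuclear phosphatase that acts on ERK and is itself induced by ERK signaling. *Dusp5* (chr19:53529109-53542431) had more peaks than any other member, with 5, 4, 4 and 2 in EpH4 and 5, 3, 5 and 4 in EpRas (untreated 1 and 2, then TGF-β 1 and 2). This is 4 ± 1.07 peaks per locus (SD, n = 8), more than in 95.4% of the 15743 coding loci with a peak in any library. Per length it was 7.50 peaks per 100 kb, above 98.2% of all coding loci. The means of 3.75 ± 1.26 in EpH4 and 4.25 ± 0.957 in EpRas did not differ beyond their spread (exact permutation test, p = 0.743), and without EpH4 TGF-β replicate 2, which held 2 peaks, the difference was -0.0833.

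The peaks at *Dusp5* formed 5 regions. The region 26.3 kb downstream of the start (chr19:53555152-53555612, intergenic) was called in all 8 libraries, at 67.1 and 89.5 in untreated EpH4, 96.9 and 53.9 in EpH4 with TGF-β, 83.3 and 96.9 in untreated EpRas and 75.2 and 40.2 in EpRas with TGF-β. Neither line was higher throughout (76.8 ± 19.9 and 73.9 ± 24.2, SD, n = 4, exact permutation test, p = 0.914). The difference of -2.96 turned positive without EpH4 untreated replicate 2 (1.27), EpH4 TGF-β replicate 1 (3.71) or EpRas TGF-β replicate 2 (8.26).

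The *Dusp5* promoter (chr19:53528890-53529183, 73 bp upstream) was called in all 4 EpH4 libraries, at 23.6 and 81.9 untreated and 68.6 and 89.3 with TGF-β. It also overlaps an exon of the noncoding gene *AC137853.2*. In EpRas it was called in replicate 1 only, at 53.2 untreated and 89.0 with TGF-β. The lines overlapped, with means of 65.8 ± 29.5 and 35.5 ± 43.6 (SD, n = 4). This promoter held 2 adjoining matches to the SRF element, CCATATTTGG at chr19:53529063-53529072 and CCTTATATGG at chr19:53529073-53529082, shown in capitals in its sequence above. A match to this element was present in 2.71% of all merged regions and in 1 of the 20 member regions.

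Inside *Dusp5*, 2 neighbouring intronic regions lay 2.51 kb and 3.13 kb from the start. The nearer one (chr19:53531469-53531774) was at 80.8 and 82.7 in untreated EpH4 and at 59.3 and no peak in EpH4 with TGF-β. In EpRas it was at 41.6 and 58.2 untreated and at 81.6 and 63.7 with TGF-β. Treated libraries were thus lower in EpH4 and higher in EpRas, without overlap within either line. The effect of TGF-β was -52.1 in EpH4 and 22.8 in EpRas, and the difference of 74.9 gave p = 0.0556 (exact permutation of the line labels within treatments, the smallest p that 36 assignments allow). In lists of 10821 peaks the EpRas values were 7.04 and 46.8 untreated and 53.6 and 43.5 with TGF-β, which overlap. A pattern of this kind (lower in EpH4 and higher in EpRas after TGF-β, without overlap within either line) was present in 3.07% of the 15059 tested regions. The smallest p was reached by 2 of 29 loci and regions examined for a difference of the effects, both neighbouring regions in *Dusp5*. Both are among the 12 member regions called in at least 4 libraries, and 3.23% of all such regions reached this p. After Benjamini-Hochberg adjustment over all such regions the smallest p was 1 (exact permutation test).

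The second intronic *Dusp5* region (chr19:53532081-53532406) was called at 59.5 and 58.8 in untreated EpH4 and in neither EpH4 library with TGF-β. In EpRas it was called in all 4 libraries, at 16.6 and 57 untreated and 76.2 and 47.7 with TGF-β. The EpH4 groups were apart and the EpRas groups overlapped, and the difference of the effects was 84.3 (exact permutation test, p = 0.0556). The last region, 23.9 kb from the start, had percentiles from 39.0 to 70.6 in the 5 libraries that called it, 2 of EpH4 and 3 of EpRas.

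DUSP4 is a nuclear phosphatase of ERK and related kinases. *Dusp4* had 1 region, in an intron 8.04 kb from the start (chr8:34815173-34815510), and no peak within 2 kb of its start in any library. The percentile was 75.2 in untreated EpH4 replicate 2, 56.9 in untreated EpRas replicate 2, and 88.2 and 79.6 in EpRas with TGF-β, with no peak in the other 4 libraries. It was called in 3 EpRas libraries and 1 EpH4 library, and the lines overlapped (56.2 ± 39.7 and 18.8 ± 37.6, SD, n = 4, exact permutation test, p = 0.257). Where called, the region always ranked in the upper part of the list. Among the full EpRas lists, the shortest had the region, and untreated replicate 1, whose list is longer, did not. Over both lines, the longest list had it at its highest percentile and the shortest list lacked it. The part of list length in these calls was not tested.

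**Figure D2:**
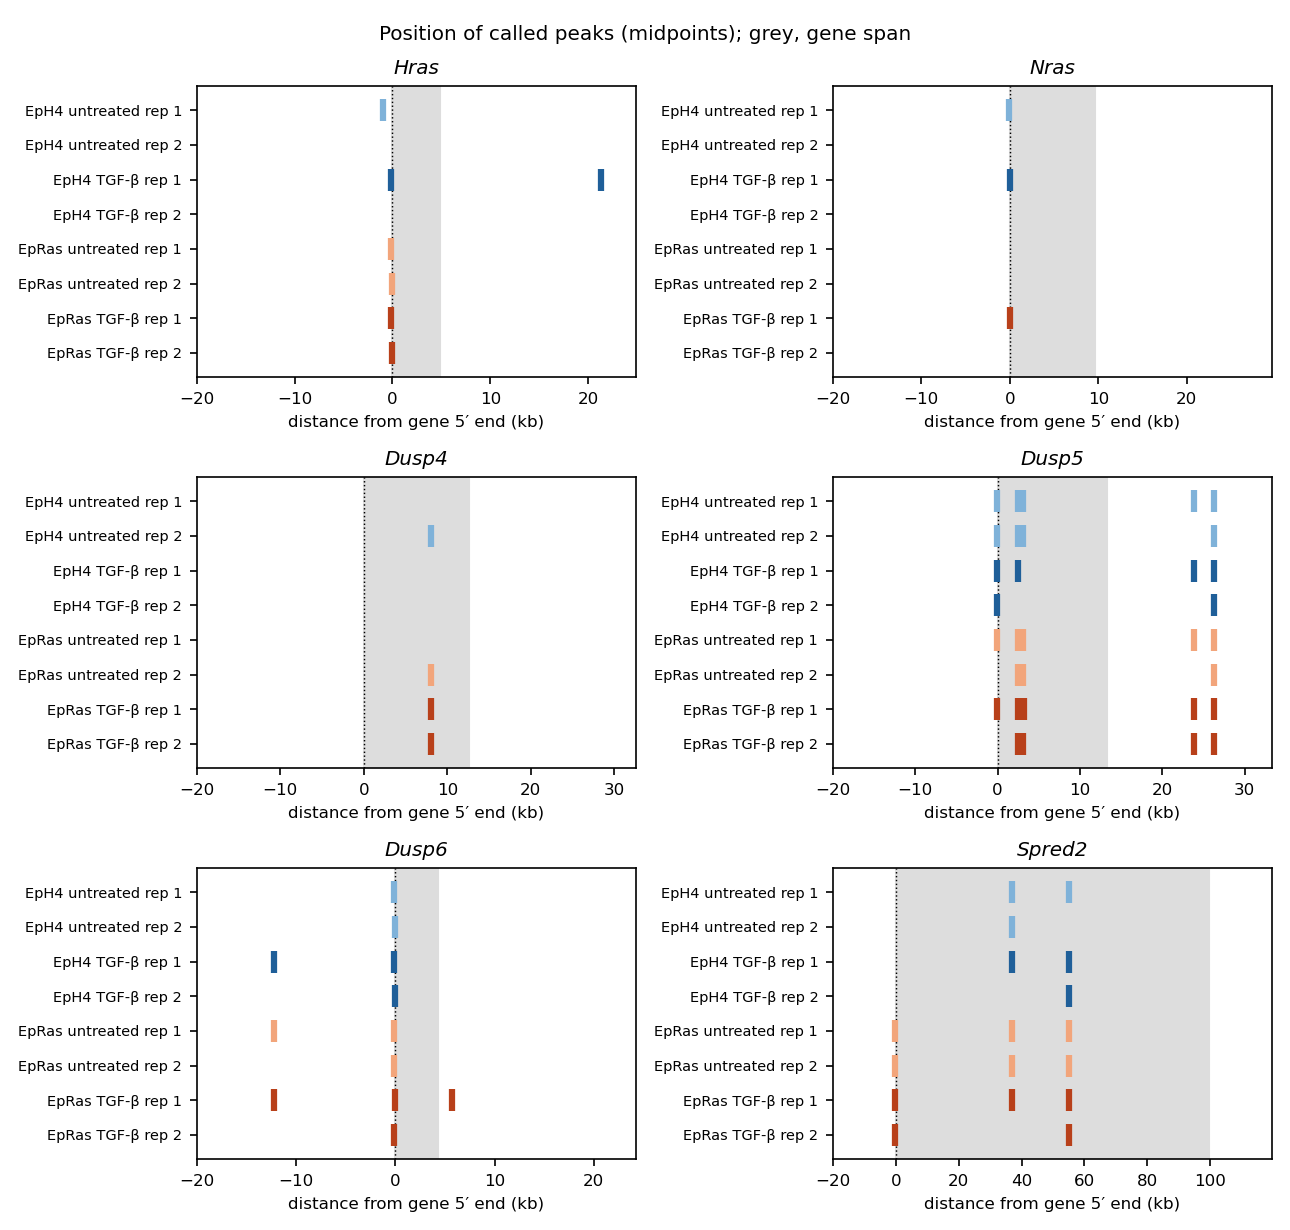
Midpoints of the called peaks at 6 loci against distance from the gene's 5′ end (kb), with 1 row per library and the gene span in grey. Peaks of different libraries fall on the same few positions. *Dusp5* has 5 of them, and the one at the *Spred2* start is filled in the EpRas rows only.

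Sprouty proteins are membrane-associated inhibitors of receptor signaling to Ras. *Spry2* had no peak at its start, and a single region 5.72 kb from the start, beyond the end of the gene (chr14:105890935-105891270), was called at 19.5 in untreated EpH4 replicate 1 and at 24.2 in EpRas with TGF-β replicate 1. *Spry4* had a region at its start, in the untranslated first exon (chr18:38601242-38601540). It was at 77.9 in untreated EpH4 replicate 2, 11.5 in EpH4 with TGF-β replicate 1, 57.6 in untreated EpRas replicate 1 and 4.98 and 38.2 in EpRas with TGF-β. The groups overlapped in both contrasts, and the means were 22.4 ± 37.4 in EpH4 and 25.2 ± 27.5 in EpRas (SD, n = 4, exact permutation test, p = 0.914). The difference of 2.87 ranged from -7.94 to 21.4 when single libraries were left out, and it was negative in 5 of the 8 cases: without EpH4 untreated replicate 1 (-4.58), EpH4 TGF-β replicate 1 (-0.758) or 2 (-4.58), EpRas untreated replicate 1 (-7.94) and EpRas TGF-β replicate 2 (-1.48). A region 719 bp upstream was called only in EpRas with TGF-β replicate 1, at 48.2.

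SPRED proteins are Sprouty-related, and recruit neurofibromin to the membrane, where it switches off Ras. *Spred1* had the fewest peaks of the members, 1 intronic peak 10.6 kb from the start in EpRas with TGF-β replicate 1, at a percentile of 9.32, and 0 peaks in the other 7 libraries. *Spred2* (chr11:19924375-20024026) had 2, 1, 2 and 1 peaks in EpH4 and 3, 3, 3 and 2 in EpRas. The means were 1.5 ± 0.577 and 2.75 ± 0.5 peaks per locus (SD, n = 4), a difference of 1.25 that no other member locus reached with the full lists and 20 kb on each side (exact permutation test, p = 0.0857, 0.784 after adjustment over 15743 loci). With 50 kb on each side *Dusp6* had a difference of 1.5, and in lists of equal length *Spred2* was level with *Dusp4* and *Dusp5* at 0.5. The lines shared the value of 2 peaks, and without EpRas TGF-β replicate 2 they did not overlap.

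The promoter of *Spred2* (chr11:19923967-19924467, 158 bp upstream) was called in all 4 EpRas libraries and in 0 EpH4 libraries. The percentile was 75.1 and 32.2 in untreated EpRas and 51.7 and 48.9 in EpRas with TGF-β, a mean of 52.0 ± 17.7 (SD, n = 4) against 0 in EpH4. The region reached the limit of 4 libraries through the EpRas libraries alone, so these values are a description and no test is given. In the untreated EpRas libraries the peaks were 477 and 453 bp wide and reached past the gene start, whereas with TGF-β they were 304 and 224 bp wide and ended 105 and 159 bp upstream of it. In lists of 10821 peaks the promoter was called in 3 EpRas and 0 EpH4 libraries, so it no longer met the rule of all 4. Among peaks with a score of at least 15.51, the median of all lists, it was again called in 3 and 0.

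The *Spred2* region in an intron 37.0 kb from the start did not follow the lines. Its percentiles were 52.9, 37.9 and 91.3 in EpH4 (untreated 1 and 2, and TGF-β 1) and 48.3, 18.4 and 74.4 in the same 3 EpRas groups and replicates, and replicate 2 with TGF-β had no peak in either line. An intronic region 55.1 kb from the start (chr11:19979341-19979699) was called in 7 libraries. It was at 70.5 and no peak in untreated EpH4, 84.3 and 81.4 in EpH4 with TGF-β, 26.2 and 91.8 in untreated EpRas and 96.5 and 98.1 in EpRas with TGF-β. Treated libraries lay above untreated ones within each line, but untreated EpRas replicate 2 overlapped with treated EpH4, and without it the treatments did not overlap. The means were 47.1 ± 41.6 without and 90.1 ± 8.45 with TGF-β (SD, n = 4), a difference of 43.0 (exact permutation test, p = 0.0857, 1 after adjustment over 15059 regions). It was 27.3 without EpH4 untreated replicate 2, the library with no peak, and between 27.3 and 57.9 over all single libraries left out. Between the lines the difference was 19.1 (exact permutation test, p = 0.457), and -0.602 without EpH4 untreated replicate 2.

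Over all members, EpRas was compared with EpH4 by peaks per locus. Libraries of the 2 lines did not overlap for 0 of the 9 loci in either direction, against 4.27% of the 15743 tested loci with more peaks in EpRas and 0.553% with fewer. The difference was positive for 7 loci, negative for *Nras* and 0 for *Spry2*, with a median of 0.5 peaks. Over all tested loci it was positive for 10389 of 15743, with a median of 0.25. In lists of equal length it was positive for 5 members, negative for 2 and 0 for 2, with a median of 0.25. No locus of the genome passed an adjusted p of 0.05 in this exact permutation test (0 calls, smallest adjusted value 0.593), and 759 had an unadjusted p below 0.05. The test allows no adjusted p under 0.05 unless a large share of loci reach its smallest p. The 0 calls therefore say little about single loci.

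By region, 1 of the 20 member regions was called in every EpRas and no EpH4 library (the *Spred2* promoter), against 1.98% of all regions, and 0 showed the reverse, against 0.752%. Of the 12 member regions called in at least 4 libraries, 2 had higher percentiles in EpRas without overlap (*Hras* and *Spred2* promoters), against 11.7% of such regions, and 0 had lower ones, against 3.69%. The *Spred2* promoter is among the 12 only through the EpRas libraries. The *Hras* promoter, 1 of the other 11, had 1 EpH4 call, but its 4 EpRas calls alone also met the limit. Neither count is therefore support for a difference between the lines. Adjusted p-values below 0.05 were reached by 0 of the 15059 regions, and 2313 had an unadjusted exact permutation p below 0.05. The same limit of the test applies to regions. With lists of equal length, 0 member regions met either description.

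At gene starts, a peak within 2 kb of a start of the gene itself was present for *Dusp6* in 8 libraries, *Dusp5* in 6, *Hras* in 6, *Spry4* in 5, *Spred2* in 4, *Nras* in 3 and *Dusp4*, *Spry2* and *Spred1* in 0. Of all 21938 coding genes, 57.5% had such a peak in 0 libraries and 10.6% in all 8. *Spred2* was the 1 member promoter found in all EpRas and no EpH4 libraries, against 0.574% of coding genes, and 0 members showed the reverse, against 0.132%.

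TGF-β was compared with no treatment over both lines. For peaks per locus, the treatments did not overlap for 0 of 9 members, against 0.394% of tested loci with more and 0.0445% with fewer peaks after TGF-β. The number of member regions called in every treated and no untreated library was 0, against 0.32% of regions, and the reverse was 0, against 0.0188%. Percentiles did not overlap for 0 of the 12 tested member regions, against 2.98% of regions higher and 0.359% lower with TGF-β. Within EpRas alone, 4 member regions had higher percentiles with TGF-β without overlap, against 28.1% of tested regions. These were the *Dusp4* intron (by 55.5), the nearer *Dusp5* intron region, the *Dusp6* promoter (by 18.9) and the *Spred2* intron 55.1 kb from the start. The *Dusp5* region at 26.3 kb was lower (-32.4), 1 region against 7.82%. Within EpH4, 1 member region was higher (*Spred2* at 55.1 kb), against 16.4%, and 2 were lower (both *Dusp5* introns), against 11.7%. Over the genome 0 loci and 0 regions passed an adjusted p of 0.05 in the exact permutation test, and 69 loci and 503 regions had an unadjusted p below 0.05. The limit of this test given for the lines applies here too.

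The number of member peaks moved with the length of the list. In library order (EpH4 untreated, EpH4 with TGF-β, EpRas untreated, EpRas with TGF-β, replicate 1 and 2 of each) the members had 11, 8, 12, 4, 12, 9, 18 and 10 peaks. The lowest and the highest number belonged to the shortest and the longest list. Per 10000 peaks of the list, the members had 6.33 ± 2.11 in EpH4 and 6.51 ± 0.426 in EpRas (SD, n = 4), so that the lines differed by less than the spread within EpH4. EpRas with TGF-β replicate 1 was the 1 library with a peak at all 9 loci, and 3 of the 5 member regions found in a single library (25.0% of members) were found there. Of all regions, 31.6% were found in a single library, and of these 11751 the same library held 5632.

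**Figure D3:**
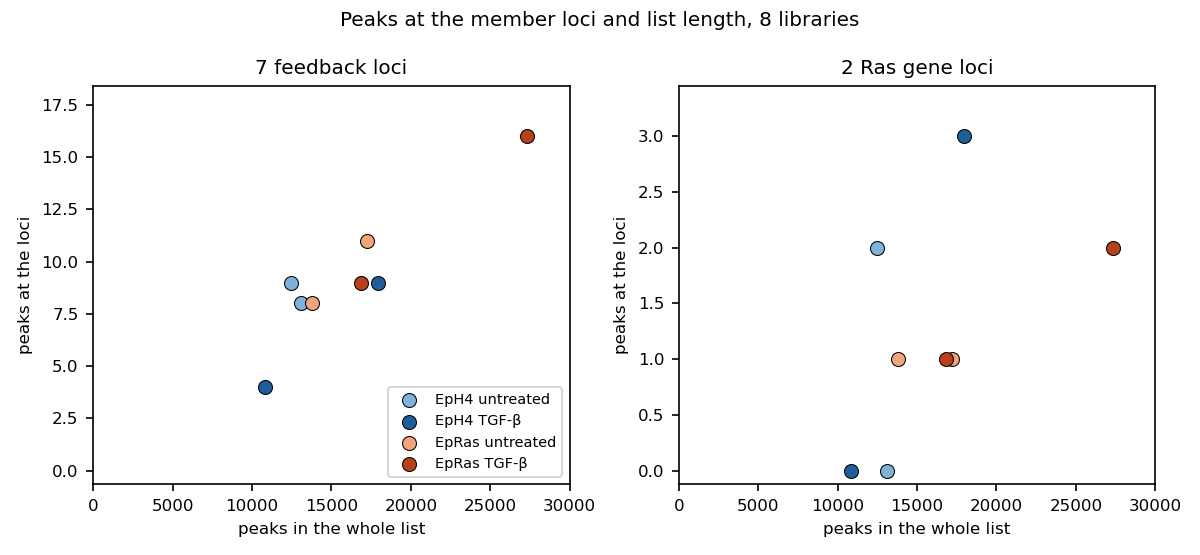
Peaks at the 7 feedback loci (left) and the 2 Ras gene loci (right) against the number of peaks in the whole list, with 1 point per library colored by group. The feedback loci range from 4 peaks in the shortest to 16 in the longest list, and the Ras gene loci from 0 to 3.

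The Ras genes were then set beside the feedback inhibitors per length of locus (94.5 kb and 490.8 kb in all). Pooled over their lengths, the Ras gene loci held 1.32 ± 1.09 and the feedback loci 1.88 ± 0.687 peaks per 100 kb (SD, n = 8). The median of single coding loci with a peak in any library, a different measure, was 1.57. Among single feedback loci, *Dusp5* (7.50) and *Dusp6* (3.39) lay above this median. *Spred2* (1.52), *Spry4* (1.36), *Dusp4* (0.951), *Spry2* (0.557) and *Spred1* (0.124) lay below it. Of the Ras genes, *Hras* (1.95) lay above and *Nras* (0.756) below. Per locus, the median member had 0.75 peaks and the median coding locus with a peak in any library 1.125. Feedback loci were denser in 6 of 8 libraries, and less dense in untreated EpH4 replicate 1 (1.83 against 2.12) and EpH4 with TGF-β replicate 1 (1.83 against 3.17). The Ras gene loci had the same mean in both lines (1.32 ± 1.59 in EpH4, 1.32 ± 0.529 in EpRas), and the feedback loci had 1.53 ± 0.485 and 2.24 ± 0.725 (SD, n = 4). The feedback values overlapped between the lines. With 50 kb on each side the Ras gene loci held 3.26 and the feedback loci 1.36 peaks per 100 kb, so the order turned with the wider flank, and with 10 kb both held 2.06 to 2.07. In lists of equal length the values were 0.661 and 1.53, and above the median score 0.397 and 1.27. No test was made, since loci are not replicates of a condition, and *Dusp5* alone gave 32 of the 74 feedback peaks.

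All 4 regions of the Ras gene loci were within 2 kb of an annotated start of any gene, as were 7 of the 16 feedback regions, and 31.7% of all merged regions. In the *Hras* locus, the region 21.4 kb downstream lay 214 bp from the start of *Rnh1*. The region 1006 bp upstream lay 67 bp from that of *Lrrc56*, and each was called in 1 library. Among the 7, the *Dusp5* region at 2.51 kb and the *Dusp6* region at 5.73 kb counted only through *AC137853.2* and *Gm48089*. These few regions thus partly reflect neighbouring genes. The 9 distal member regions, all in feedback loci, are in introns or between genes. In 500 bp around the midpoint, an AP1 match was present in 8 of these 9 (the exception was the *Spry2* region), against 46.7% of all distal regions, and in 0 of the 11 promoter regions, against 16.1% of all promoter regions. An ETS match was present in 4 of the 11 promoter regions (*Nras*, *Dusp6* and both *Spry4* regions), against 31.6% of all promoter regions, and in 2 of the 9 distal regions (*Dusp5* at 23.9 kb and *Spry2*), against 9.08% of all distal regions. A RUNX match was present in 2, the *Hras* promoter and the *Dusp5* region at 26.3 kb, against 15.1% of all regions. In 6 of the 8 distal regions with an AP1 match, the match was centred within 40 bp of the midpoint, as at *Dusp4*, where it lay 5 bp away, and in the *Spred2* intron, 8 bp away. At the *Dusp5* region 26.3 kb from the start the match lay 184 bp away, outside the sequence printed above. In windows of 200 bp, 7 of the 9 held an AP1 match, against 41.2% of all distal regions. These counts describe letters in few windows and carry no test.

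The other genes of the pathway were examined as a list of 29: adaptors and exchange factors, related GTPases, kinases, GTPase activators, further feedback genes and genes induced by ERK. All 29 loci had a peak in at least 1 library. Of these, 1 (3.45%) had more peaks in EpRas without overlap (*Nf1*), against 4.27% of all tested loci, and 0 had fewer, and for TGF-β both counts were 0. *Nf1*, which encodes neurofibromin, the GTPase activator that SPRED proteins recruit, had 0, 1, 1 and 1 peaks in EpH4 and 5, 2, 8 and 4 in EpRas (exact permutation test, p = 0.0286, 0.593 after adjustment over 15743 loci). In lists of equal length *Nf1* had 0, 1, 1 and 1 peaks in EpH4 and 3, 1, 2 and 3 in EpRas, which overlap. In these lists 0 genes were higher in EpRas and 1 kinase gene, *Araf*, was lower without overlap. The median difference of the list was 0.25 peaks per locus, as over all tested loci, with 18 genes above 0, 7 below and 4 at 0.

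**Figure D4:**
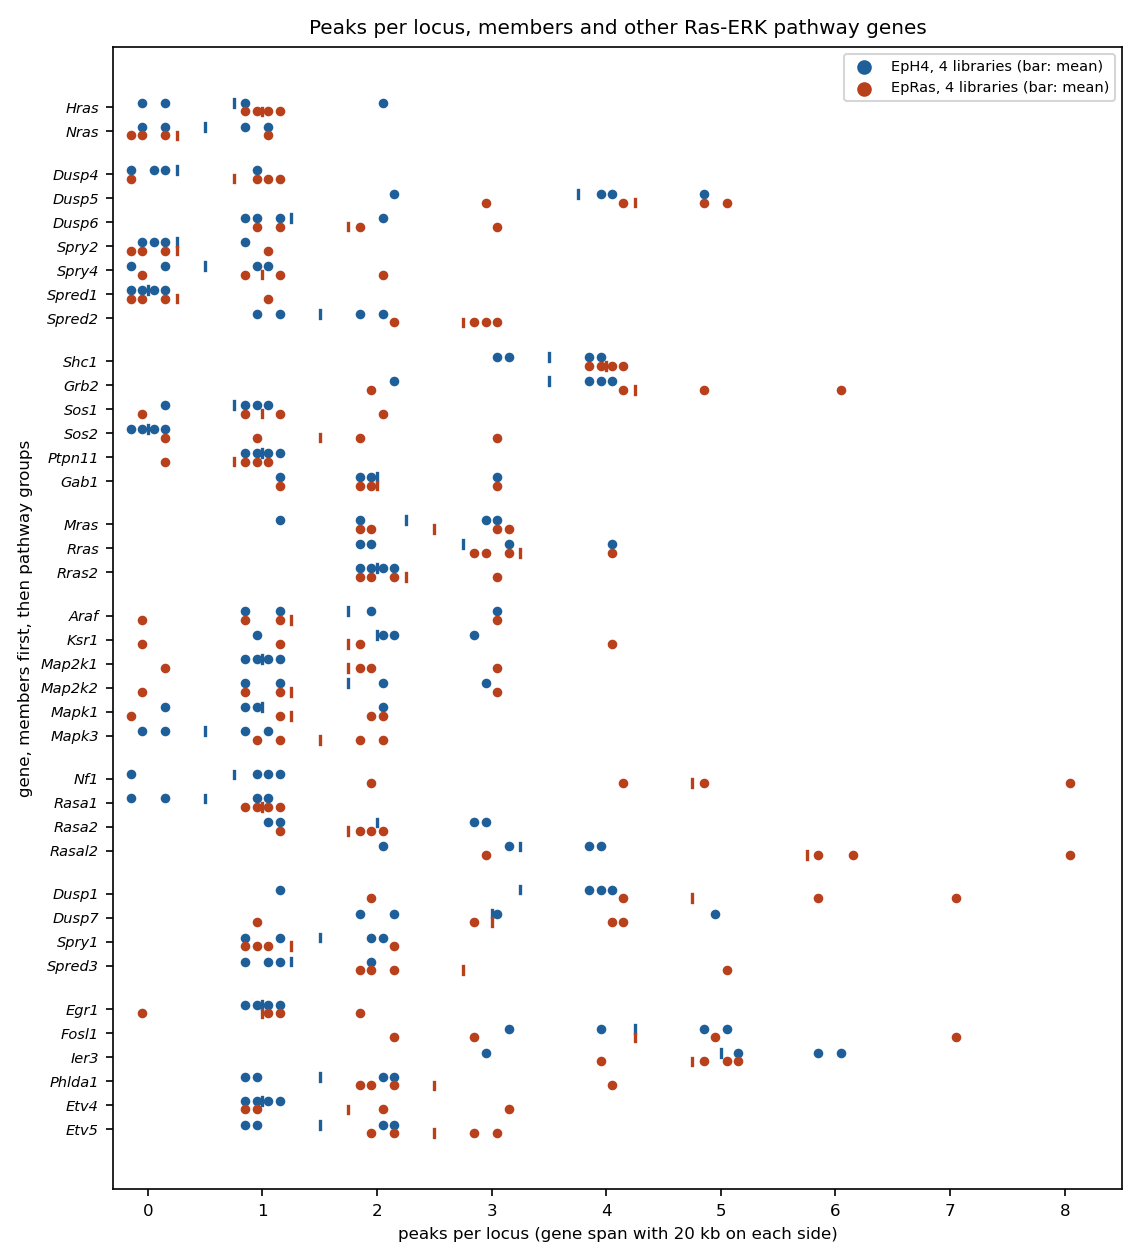
Peaks per locus (gene span with 20 kb on each side) in the 4 EpH4 (blue) and 4 EpRas (red) libraries for the 9 members and, below them, the 29 other pathway genes by group. Points are libraries, spread sideways so that equal values can be seen, and bars are means. *Nf1* is the only locus where the lines do not overlap.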

How the data were processed

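Per the labels and the study's methods, FAIRE-seq was performed on both lines, untreated or given TGF-β. The authors used Bowtie2 for mapping to mm10 and MACS2 for peak calling (version 2.0.9, from the submitters' processing notes). The deposited lists, 1 per library, hold the position of each peak and a score given by the authors' peak caller, whose definition is not given in the sources used here. The score was therefore used only as a rank within a library. The lists hold no read counts, so the precision of a score is unknown. The study describes 2 biological replicates. P-values measure the spread between these libraries.

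Positions were made 1-based and compared with GENCODE M21 genes, of the same build, in Python 3.11.15 with pandas 2.3.3, numpy 2.4.6 and pysam 0.24.0. Overlapping peaks (at least 1 bp) of any of the 8 lists were joined into regions. Regions called in at least 4 libraries and loci with a peak in at least 1 library were tested by a two-sided exact permutation test with 70 assignments, with Benjamini-Hochberg adjustment over all of them. The procedure was tested on simulated data. The members and the pathway, marker and motif lists were chosen with earlier results of these data known. All members are described. Regions were named where lines or treatments did not overlap, or where the mean percentile was highest at a locus, and others are given by their values. Pathway genes were named where lines or treatments did not overlap, at most 10, and *Araf* was named after its values were seen. A gene of the pathway list is not reported here, and the counts of that list leave it out.

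Alternatives were equal list lengths, a limit at the median score, flanks of 10 and 50 kb, peak midpoints in place of overlap, coverage of at least 50% of a region, no filter on regions, a motif window of 200 bp, a replicate block and leaving out each library. The correlations of replicate deviations between groups were between -0.00887 and 0.0302, and the main tests treated the libraries as unpaired. Such values cannot exclude a step shared by libraries of the same replicate number. Replicate 1 had the longer list in EpH4 with TGF-β and in each EpRas group, and the shorter list in untreated EpH4. No sequence of chromosome 18 is shown.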

Additional observations from a re-analysis of the deposited data

Results flagged for a closer look

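At the *Dusp5* region 2.51 kb from the gene start, the effect of TGF-β on the score percentile differed in direction between the lines. Both treated EpH4 libraries lay below both untreated ones and both treated EpRas libraries above. The EpH4 values were 80.8 and 82.7 untreated, and 59.3 and 0 with TGF-β. The 0 stands for no peak in replicate 2, the shortest list, and a missing peak is not shown to be closed chromatin. The difference of the effects was 74.9 (EpRas minus EpH4, exact permutation test, p = 0.0556, the smallest that 36 assignments allow, and 1 after adjustment over the 15059 tested regions). It was 1 of 29 loci and regions examined, of which 2 reached this p, both among the 12 tested member regions. Of all tested regions, 3.23% reached this p and 3.07% showed the same pattern. In lists of equal length the EpRas groups overlapped. Groups of 2 libraries were too small for a check of single outlying libraries.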

How the results depend on the processing

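Each of 56 results was recomputed under those of the 8 alternatives for all libraries, or the narrower motif window, that apply to it. Of 266 values, 232 kept their direction and call, 18 were differences without a call that became 0 or left 0, 11 counts or levels moved and 5 differences changed sign. For a tested difference the call was an adjusted p under 0.05. None reached it in the main setting or in an alternative, so an unchanged call is no support for a difference. With equal lists, the member regions specific to EpRas fell to 0, those higher in EpRas without overlap to 0, and the pathway genes became 0 higher and 1 lower, and the TGF-β difference in peaks per locus became -0.25 for *Hras* and -0.25 for *Spry4*. Above the median score, both region counts were 0, 1 pathway gene was higher with TGF-β, the line difference at the *Dusp5* region 26.3 kb from the start was 6.71, and the TGF-β differences were -0.25 (*Spry4*) and 1.25 (*Spred2*). A flank of 10 kb gave 1 pathway gene higher with TGF-β, and a flank of 50 kb gave 3.26 peaks per 100 kb for the Ras gene loci. Requiring peaks over at least 50% of a region left 0 regions specific to EpRas and 1 higher without overlap. For these changes the cause was not tested.

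Leaving out single libraries gave 400 values, of which 340 kept direction and call and 31 were differences without a call that became 0 or left 0. Here too no tested difference had a call, so an unchanged call is no support. Member loci higher in EpRas ranged from 0 to 1 (1, *Spred2*, without EpRas TGF-β replicate 2), regions specific to EpRas from 1 to 2 (2, with the *Hras* promoter, without EpH4 TGF-β replicate 1), regions higher without overlap from 1 to 2 (1 without EpRas TGF-β replicate 1 or 2), and member regions higher with TGF-β from 0 to 1 (1, *Spred2* at 55.1 kb, without EpRas untreated replicate 2). Pathway genes higher in EpRas ranged from 1 to 3 (2 without EpH4 untreated replicate 2 or its EpRas counterpart, and 3 if EpRas TGF-β replicate 2 was left out), and genes lower with TGF-β from 0 to 1 (1 without EpRas TGF-β replicate 1). Line differences in percentile ranged from -10.6 to 8.26 (*Dusp5*, 26.3 kb), -5.18 to 9.78 (*Dusp6* promoter), -7.94 to 21.4 (*Spry4*) and -0.602 to 36.4 (*Spred2*, 55.1 kb), and TGF-β differences from -2.08 to 22.9 (*Dusp4*), -1.71 to 22.4 (*Hras* promoter) and -10.6 to 6.70 (*Spred2* promoter). Line differences in peaks per locus ranged from -0.0833 to 0.917 (*Dusp5*), and TGF-β differences from -0.0833 to 0.583 (*Hras*), -0.917 to 0.0833 (*Dusp5*) and -0.667 to 0.0833 (*Spred2*). Without any 1 EpRas library the *Spred2* promoter was called in 3 libraries and was not tested. The count of regions higher without overlap then stayed at 2 without EpRas untreated replicate 1 (*Hras* promoter and *Spred2* at 55.1 kb) or 2 (*Hras* promoter and *Dusp5* at 23.9 kb), so the regions counted changed.

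The replicate block pairs libraries by number and cannot give a p under 0.125, so no call was possible in it. With this block the *Hras* promoter difference of 43.0 had p = 0.125 (exact permutation test). The lists hold no depth, so a peak that missed the authors' limit cannot be told apart from closed chromatin, and the exact test allows no adjusted p under 0.05 unless many loci reach its smallest value.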

Other observations

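In the untreated EpRas libraries the peaks at the *Spred2* promoter spanned the gene start (477 and 453 bp wide), and with TGF-β they did not (304 and 224 bp wide). The widths of these 4 peaks did not overlap between treatments, and 2 against 2 libraries allow no p under 0.333 in an exact permutation test. The share of all regions whose widths separate in this way was not computed, so no effect of TGF-β is read from them. Over all member peaks the median width was 249.5 bp (range 200 to 477), so the widest member peak was the one at the *Spred2* promoter in untreated EpRas replicate 1.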
